A study of Mus musculus with 8 samples.

Results

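Endocardial marker genes were followed in mouse heart ventricles after Mib1 was deleted from the neighbouring myocardium. The set held 9 genes, Npr3, Nfatc1, Plvap, Vwf, Adgrg6, Tmem108, Cgnl1, Klf2 and Tmem100, and all 9 were present among the 13869 genes measured. They were chosen by name, as markers of the endocardium, with earlier results of these data known. The mutant group was Mib1flox with TnT-Cre, and it was set against WT siblings, both at E14.5. RNA of 16 hearts per genotype was pooled into 4 libraries each, so a library stands for a pool of embryos. The cardiac troponin T promoter drives Cre in cardiomyocytes, and endocardial cells were not the target of the deletion. The labels do not say whether the WT siblings carried a floxed allele or Cre. They do not tie pools to litters either, and the p-values therefore describe variation from pool to pool, which may be partly technical.

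The endocardium is the endothelial sheet that lines the heart chambers and covers the trabeculae. It lies against the myocardium and carries Notch receptors. Mib1 encodes an E3 ubiquitin ligase that a ligand-bearing cell needs for its Delta and Jagged proteins to activate Notch on the next cell, so a deletion in cardiomyocytes removes the enzyme from the sending side of that contact. The markers described here cover a peptide receptor (Npr3), a caveolar diaphragm protein (Plvap), a blood clotting protein (Vwf), an adhesion G protein-coupled receptor (Adgrg6), transcription factors of valve formation and flow response (Nfatc1, Klf2), a membrane protein induced through the receptor ALK1 (Tmem100), a junction protein (Cgnl1) and the membrane protein gene Tmem108.

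The promoters of the called members Npr3 and Adgrg6 are shown because both genes were lower in the mutants. The RefSeq promoter table (GRCm38.p6, 250 bases before to 50 after each gene start) held a promoter for 5 of the 9 members, among them Npr3 at chr15:11907322-11907621, minus strand, and Adgrg6 at chr10:14544987-14545286, minus strand. It held none for Plvap, Vwf, Nfatc1 or Tmem100. Capitals mark matches to 6 motifs searched on both strands. The motif of RBPJ, the DNA-binding partner of Notch, was searched as TGGGAA. The ETS motif was searched as CCGGAA and the NFAT motif as GGAAA, which can overlap each other and the RBPJ motif. The GATA motif was searched as AGATAA, the KLF motif as CACCC and the E-box as CACGTG.
Npr3: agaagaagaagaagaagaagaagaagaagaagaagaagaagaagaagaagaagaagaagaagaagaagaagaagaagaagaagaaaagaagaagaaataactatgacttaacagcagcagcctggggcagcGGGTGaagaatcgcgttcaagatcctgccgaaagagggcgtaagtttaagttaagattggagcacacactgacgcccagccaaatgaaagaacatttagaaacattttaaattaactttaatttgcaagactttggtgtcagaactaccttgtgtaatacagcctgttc
Adgrg6: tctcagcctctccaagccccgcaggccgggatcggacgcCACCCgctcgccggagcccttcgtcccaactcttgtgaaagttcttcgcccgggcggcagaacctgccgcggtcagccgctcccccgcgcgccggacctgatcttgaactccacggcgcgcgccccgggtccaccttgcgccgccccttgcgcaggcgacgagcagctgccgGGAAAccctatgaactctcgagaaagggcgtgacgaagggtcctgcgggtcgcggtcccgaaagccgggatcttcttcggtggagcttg

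The Npr3 window held 1 match, to the KLF motif on the reverse strand, and began with a long repeat, with a GC content of 39.0% against a median of 52.7% over all promoters of the table. The Adgrg6 window, at 69.0% GC, held 1 match to the KLF and 1 to the NFAT motif. Neither window held the RBPJ motif, which 25.6% of the 32851 promoters contained. Among the members with a promoter, the RBPJ motif occurred in Cgnl1 alone, with 1 match. The KLF and NFAT motifs were found in 57.5% and 61.3% of all promoters, and the ETS, GATA and E-box motifs in 14.9%, 11.2% and 7.15%. The only match to the last 3 among the members was an E-box in 1 of the Tmem108 promoters. The matches are descriptions of letters and not of binding.

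The mutant libraries held 6597943 to 11506082 counts and the WT libraries 6307634 to 8964058, and a floor of 3 counts stood at 0.265 to 0.472 CPM (counts per 1000000, scaled by the library size that the authors normalized), a limit that covers counting error alone. Mib1 itself averaged 100 ± 5.32 CPM in the mutants and 161 ± 7.48 CPM in WT (SD, n = 4 each), with no overlap. The ventricles also hold cells without TnT-Cre, and the counts cover the whole transcript. Every member was detected in every library, with 53 counts or more, and all 9 passed the filter on low values, a mean log2 CPM of at least 0. In bulk tissue, fewer cells of a type and less RNA per cell cannot be told apart.

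Endocardial markers split into called and uncalled genes, and differences between the members were not tested. Npr3, Plvap, Vwf and Adgrg6 were lower in the mutants, and the other 5 did not pass the test. By limma over 13740 genes, 4 of 9 members were called lower at an adjusted p under 0.05 and 0 higher, against 1.25% of all genes tested called lower and 0.99% called higher (2.24% in either direction). The 5 members that were not called had unadjusted p-values of 0.0292 to 0.437, and 1 of them was under 0.05. In the 4 called genes the mutant and WT libraries did not overlap, against 4.65% of all genes with no overlap and lower values in the mutants. No member was separated in the other direction, as 4.27% of all genes were. The median of the 9 log2 differences was −0.29, beside 0 over all genes tested, and 7 of the 9 were below 0.

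**Figure D1:**
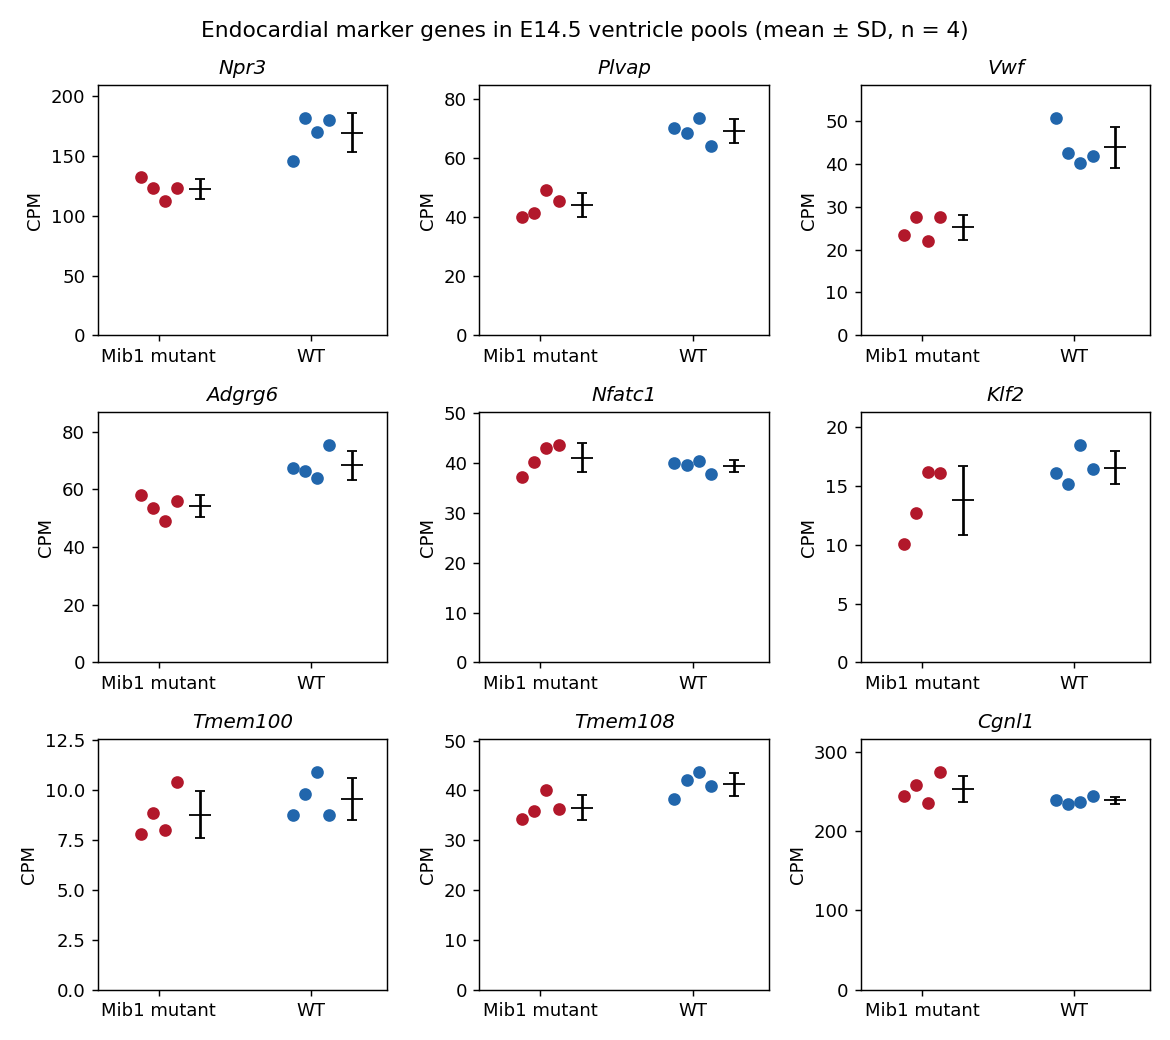
Level of each endocardial marker in CPM (vertical axes, from 0) in each of the 4 Mib1 mutant pools (red) and the 4 WT pools (blue), with the mean and SD as black bars. The mutant points lie below all WT points for Npr3, Plvap, Vwf and Adgrg6 and overlap them for the other 5 genes.

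Vwf encodes von Willebrand factor, which endothelial cells store in Weibel-Palade bodies and release for platelet adhesion. It had 23.4, 27.5, 22.1 and 27.7 CPM in mutant replicates 1 to 4, against 50.8, 42.6, 40.1 and 41.8 CPM in the WT libraries. The highest mutant pool was well below the lowest WT pool, and WT replicate 1 was the highest of all. It fell by 0.80 ± 0.10 on the log2 scale (SE; limma adjusted p = 0.000326), to a level 0.575 times that of WT and the largest difference among the members. An exact two-sided permutation test over libraries gave an unadjusted p = 0.0286, the smallest that 4 against 4 allows. Every gene without overlap of the groups reaches it, so here and below it only restates that separation.

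Plvap encodes the protein of the diaphragms that close endothelial caveolae and fenestrae. Its level was 40.0, 41.4, 49.2 and 45.4 CPM in the mutants, against 70.1, 68.4, 73.6 and 64.1 CPM in WT. The groups were separated by a gap wider than the spread within either of them. The fall was 0.65 ± 0.07 on the log2 scale (SE; limma adjusted p = 0.000198), to 0.636 times the WT level, with an exact permutation p of 0.0286.

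Npr3 encodes the natriuretic peptide clearance receptor, which binds the peptides and removes them. It had 132, 123, 112 and 123 CPM in the mutants, against 146, 182, 170 and 180 CPM in WT. WT replicate 1 was closest to the mutants and still above them. The mutant level was 0.725 times that of WT, a log2 difference of −0.46 ± 0.07 (SE; limma adjusted p = 0.00295), with an exact permutation p of 0.0286.

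Adgrg6, also called Gpr126, encodes an adhesion receptor that binds type IV collagen of basement membranes. It had 58.0, 53.6, 49.0 and 56.1 CPM in the mutants, against 67.4, 66.4, 64.0 and 75.5 CPM in WT. The groups did not overlap, and mutant replicate 1 came closest to WT. This was a log2 difference of −0.33 ± 0.07 (SE; limma adjusted p = 0.0231), with an exact permutation p of 0.0286. The call was lost without mutant replicate 2 (adjusted p = 0.0729) and without WT replicates 1, 2 or 4 (0.0719, 0.065 and 0.0704), while Npr3, Plvap and Vwf were called whichever library was left out. Without a trend on the mean level, Npr3 and Adgrg6 missed the threshold (adjusted p = 0.05 and 0.102).

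The transcription factor genes were not called. Nfatc1, the calcineurin-dependent factor that marks valve endocardium and is needed for valve formation, had 37.3, 40.3, 43.0 and 43.7 CPM in the mutants, against 40.0, 39.6, 40.4 and 37.8 CPM in WT. Mutant replicates 3 and 4 lay above the WT libraries, replicate 1 below them and replicate 2 among them, with a log2 difference of 0.05 (2 SE interval −0.08 to 0.19; limma adjusted p = 0.767). Klf2, which endothelial cells raise under flow, had 10.1, 12.7, 16.2 and 16.1 CPM in the mutants, against 16.1, 15.2, 18.5 and 16.4 CPM in WT. Mutant replicates 1 and 2 lay below every WT library and replicates 3 and 4 lay among them. Klf2 had a log2 difference of −0.29 ± 0.14 (SE; 2 SE interval −0.572 to −0.002; limma adjusted p = 0.373), from 99 to 136 counts per library. At this spread the difference was not called, while Adgrg6 was called at −0.335.

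The other 3 members were not called either. Tmem108 had 34.2, 35.8, 40.0 and 36.2 CPM in the mutants, against 38.3, 42.0, 43.7 and 40.9 CPM in WT. Mutant replicate 3 alone reached into the WT range, and the difference was −0.17 ± 0.07 (SE; 2 SE interval −0.317 to −0.031; limma adjusted p = 0.274; exact permutation p = 0.0571). Tmem100, which the ligands BMP9 and BMP10 induce in endothelial cells, had 7.8, 8.84, 8.01 and 10.4 CPM in the mutants, against 8.72, 9.82, 10.9 and 8.74 CPM in WT, with a log2 difference of −0.13 (2 SE interval −0.39 to 0.14). Its counts, 53 to 88 per library, were the lowest of the set. Cgnl1, the gene of the junction protein paracingulin, had 245, 258, 236 and 275 CPM in the mutants, against 240.0, 235, 237 and 245 CPM in WT, with a log2 difference of 0.08 (2 SE interval −0.02 to 0.19; limma adjusted p = 0.506). Mutant replicates 2 and 4 lay above all WT libraries, replicate 1 was level with the highest of them and replicate 3 lay among them.

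Levels were also ordered per length, as CPM per kb of the longest annotated coding transcript. In the mutants the order was Cgnl1 at 37.6 ± 2.55, Plvap at 22.1 ± 2.08, Npr3 at 17.8 ± 1.2, Tmem108 at 10.2 ± 0.694, Nfatc1 at 8.56 ± 0.611, Adgrg6 at 8.33 ± 0.597, Klf2 at 7.46 ± 1.61, Tmem100 at 4.96 ± 0.669 and Vwf at 2.85 ± 0.326 CPM per kb (SD, n = 4). In WT it was Cgnl1 at 35.4 ± 0.63, Plvap at 34.8 ± 1.98, Npr3 at 24.6 ± 2.4, Tmem108 at 11.5 ± 0.639, Adgrg6 at 10.5 ± 0.766, Klf2 at 8.96 ± 0.767, Nfatc1 at 8.22 ± 0.234, Tmem100 at 5.41 ± 0.599 and Vwf at 4.96 ± 0.541 CPM per kb. In WT the ranges of Cgnl1 and Plvap, of Tmem108 and Adgrg6, of Adgrg6 and Klf2, of Klf2 and Nfatc1 and of Tmem100 and Vwf overlapped, so these neighbours did not differ in level beyond their spread. In the mutants Cgnl1 lay above Plvap with no overlap, as Tmem100 lay above Vwf. The 18 pan-endothelial markers ran from 5.36 to 73.5 CPM per kb in WT, with a median of 26.4, and every member but Vwf lay within that range. Ventricle RNA cannot show which cells a transcript came from, and the label of endocardial marker was taken from general knowledge.

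The summed level of pan-endothelial markers was lower in the same mutant libraries, while most single markers were not called. Of 18 such genes, 4 were called lower, none higher and 14 neither, with a median log2 difference of −0.14. Over all genes tested, 1.25% were called lower and 0.99% higher. In 6 of the 18 the mutant libraries lay below all WT libraries, against 4.65% of all genes. In none did they lie above all of them, against 4.27%. Differences of 14 of the 18 lay below 0 and of 4 above it. Pecam1, Cdh5 and Kdr stood at −0.11, −0.14 and −0.11 and Cd34 at 0.07, none of them called. The angiogenic matrix gene Mmrn2 fell by 0.40, the adrenomedullin receptor subunit gene Ramp2 by 0.37, Egfl7, a secreted vascular factor, by 0.37 and the angiopoietin receptor gene Tek by 0.25 on the log2 scale. When a library was left out, Egfl7 missed the threshold in 6 and Tek in 7 of 8 fits (adjusted p up to 0.146 and 0.143). The summed level of the list was 1510 to 1560 CPM in the mutants, against 1700 to 1750 CPM in WT, with no marker at 0. Of 11 coronary endothelial markers tested, Aplnr, which encodes the receptor of apelin, fell by 0.65 and Cd36, which encodes a fatty acid transporter, by 0.39, while Unc5b, a netrin receptor gene, rose by 0.36. Cd36 and Unc5b each lost their call in 5 of the 8 fits (adjusted p up to 0.113 and 0.0597). Of the 11 coronary markers 9 lay below 0, and their sum was 741 to 772 CPM in the mutants, against 781 to 881 CPM in WT, without overlap. The mutant libraries lay below all WT libraries in 3 of the 11 and above all of them in 1. The median of the coronary list, −0.26, was close to that of the endocardial markers, and no difference between the lists was tested.

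The members were also set against a pan-endothelial level, the mean log2 CPM of the 18 pan-endothelial markers in each library. It was subtracted from every gene and the fit was repeated. The 4 markers called lower are part of this mean, and whether it follows endothelial cell number was not tested. This mean was 5.96 to 6.04 in the mutant libraries and 6.14 to 6.21 in WT, a difference of −0.16, so that the median of all genes stood at 0.16 on this relative scale. Plvap fell by 0.50 ± 0.07, Vwf by 0.64 ± 0.10 and Npr3 by 0.31 ± 0.08 on this scale (SE; limma adjusted p = 0.00118, 0.00159 and 0.0231), that is 3 of 9 members, against 1.01% of all genes called lower. Npr3 lost this call without mutant replicate 2, WT replicate 2 or WT replicate 3 (adjusted p = 0.0576, 0.0789 and 0.0573), while Plvap and Vwf were called in all 8 such fits. With the replicate block Npr3 stood at an adjusted p of 0.0514, and with the level set by the median of the list at 0.0513 (−0.23). Adgrg6 was not called relative to this level (−0.18 ± 0.08; adjusted p = 0.114).

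Relative to the same level, Cgnl1 was called higher by 0.24 ± 0.06 and Nfatc1 by 0.21 ± 0.07 (SE; limma adjusted p = 0.0189 and 0.0426). On this scale 18.4% of all genes were called higher, a share set by the shift of the whole scale, and 2 of 9 members is near that background. Cgnl1 lost the call without mutant replicate 2, WT replicate 1 or WT replicate 2 (adjusted p = 0.058, 0.0531 and 0.0668), and Nfatc1 lost it in 7 of 8 fits (adjusted p up to 0.111). With pan-endothelial level set by Pecam1, Cdh5 and Kdr alone, Nfatc1 was not called (adjusted p = 0.134).

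**Figure D2:**
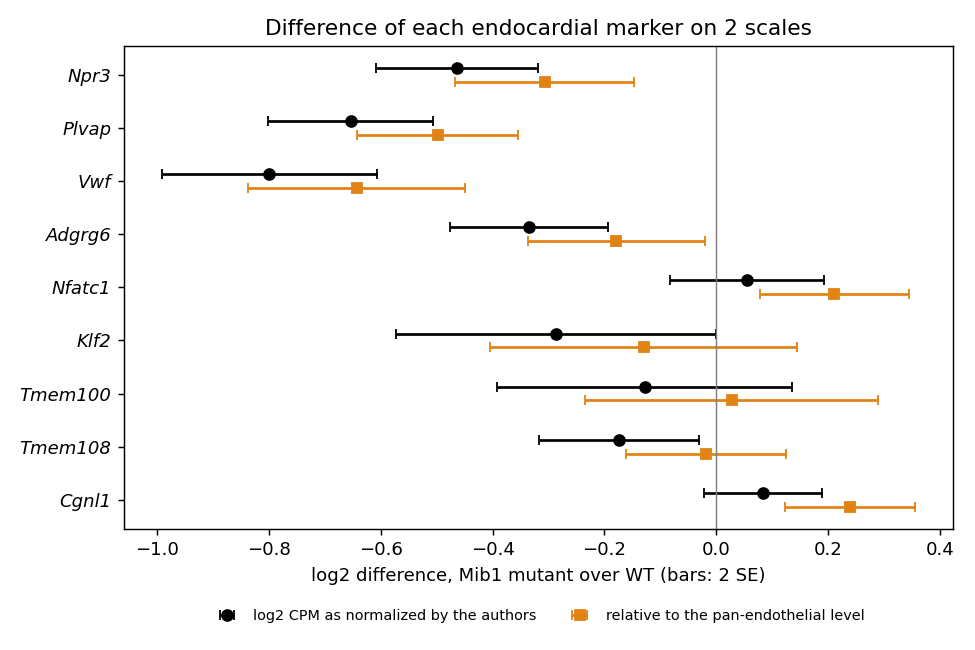
Log2 difference of each endocardial marker, Mib1 mutant over WT, on the authors' normalization (black circles) and relative to the mean of 18 pan-endothelial markers (orange squares), with bars of 2 SE. Vwf, Plvap and Npr3 lie below 0 on both scales, while Nfatc1 and Cgnl1 lie at 0.05 and 0.08 on the first scale.

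**Figure D3:**
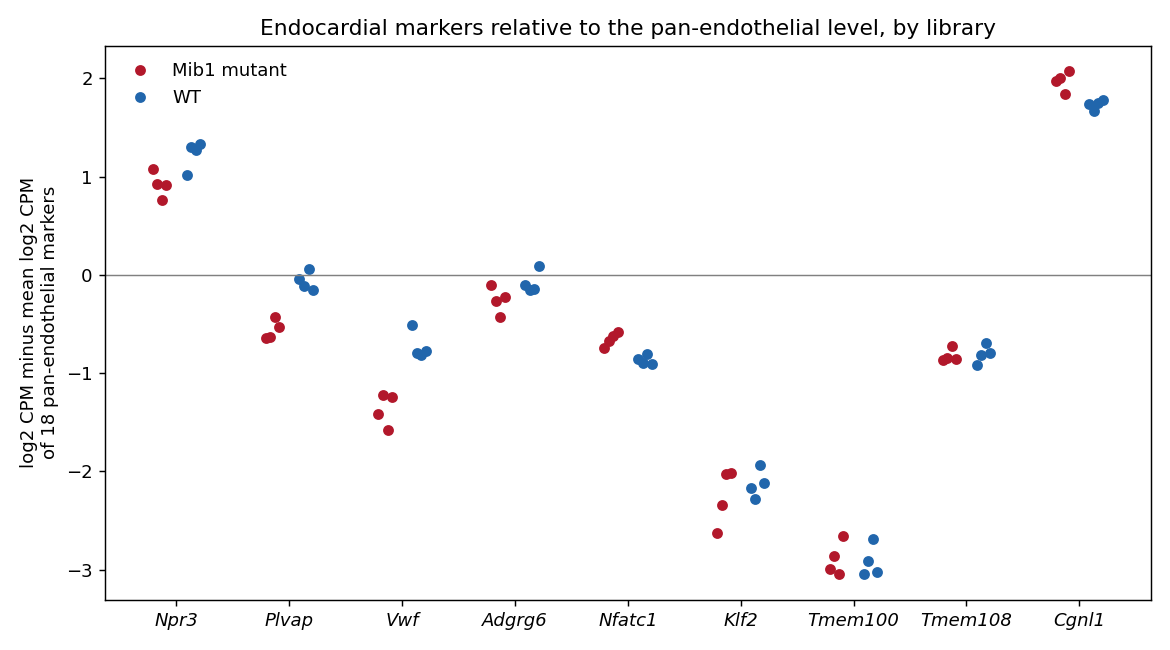
Level of each endocardial marker relative to the pan-endothelial mean in each library (vertical axis, difference in log2 CPM), with the 4 Mib1 mutant pools in red and the 4 WT pools in blue. Plvap and Vwf lie lower in all mutant pools and Nfatc1 and Cgnl1 higher in all of them, Npr3 overlaps only where mutant replicate 1 (1.08) lies above WT replicate 1 (1.01), and Adgrg6, Tmem108, Klf2 and Tmem100 overlap.

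The other genes of the members' pathways were read from lists of partners. Over all genes tested, 1.25% were called lower and 0.99% higher, the background for the count of each list below. For Npr3, 2 of 7 tested genes of the natriuretic system fell and none rose, with a median of −0.08. Nppa, the gene of the atrial natriuretic peptide that NPR3 clears, averaged 362 ± 35.9 CPM in the mutants and 1090 ± 36.1 CPM in WT (SD, n = 4). The guanylyl cyclase receptor gene Npr1 averaged 19.6 ± 1.80 CPM in the mutants and 26.5 ± 1.59 CPM in WT, a log2 difference of −0.44 ± 0.09 (SE; limma adjusted p = 0.0192), and lost its call without WT replicates 1, 3 or 4 (adjusted p up to 0.0794). Nppa, Npr3 and Npr1 were thus lower in the same libraries. The other tested peptide gene, Nppb, stood at −0.41 and was not called (limma adjusted p = 0.132). The receptor gene Npr2 stood at 0.06 and Corin, which encodes the enzyme that cleaves the peptide precursor, at 0.02.

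For Tmem100, 1 of 13 tested genes of ALK1 and BMP signalling fell and 2 rose, with a median of 0.05. Bmp10, a ligand of ALK1 made by cardiomyocytes, averaged 8.505 ± 0.56 CPM in the mutants and 41.4 ± 2.32 CPM in WT. The receptor genes Acvrl1, which encodes ALK1, and Eng stood at −0.18 and −0.18 (limma adjusted p = 0.464 and 0.0792). Smad9, a mediator of BMP signals, rose by 1.03 and Id2, a BMP target gene, by 0.67 on the log2 scale, while Id1 stood at −0.17 and Id3 at −0.09. Tmem100, at −0.13, was not called beside a Bmp10 level 0.205 times that of WT.

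For Klf2, 1 of 18 tested genes of flow response and its control fell and none rose, with a median of −0.02. The protease gene Adamts1 fell by 0.23 and lost its call in 6 of 8 fits (adjusted p up to 0.12). The nitric oxide synthase gene Nos3 stood at −0.25, the related factor Klf4 at 0.38 and the KRIT1 complex genes Krit1, Ccm2 and Pdcd10 at 0.12, −0.10 and 0.18, none of them called. For Nfatc1, none of 12 genes of calcineurin and NFAT was called, with a median of 0.03, and Nfatc3, at 0.15 ± 0.07 (SE), had the smallest p. The calcineurin feedback gene Rcan1, at −0.03, was not called either.

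No call was made among the partners of the other members. The 8 caveolar genes beside Plvap lay between −0.10 and 0.08, with a median of −0.03 and the smallest p for Ehd2 (−0.09). The 9 tested genes of Weibel-Palade storage beside Vwf had a median of −0.05, and Angpt2, whose product is stored in the same granules, stood at 0.60 ± 0.22 (SE; limma adjusted p = 0.203). Vwf is also made by megakaryocytes. Of 10 megakaryocyte markers 3 were tested, Itga2b, Pf4 and Gp1ba, at −0.07, −0.11 and −0.24, and their summed level was 6.3 to 8.3 CPM in the mutants, against 6.72 to 9.58 CPM in WT. The 11 genes of ADGRG6 ligands and effectors had a median of 0.01, with the smallest p for the basement membrane collagen gene Col4a4 (0.60; limma adjusted p = 0.117). The 14 junction genes beside Cgnl1 had a median of −0.02.

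Of 12 further endocardial genes, 1 fell and none rose, and their median was 0, with 6 below 0. Their summed level was 606 to 626 CPM in the mutants, against 645 to 674 CPM in WT, with no overlap. In 4 of the 12 the mutant libraries lay below all WT libraries, against 4.65% of all genes. In 1 they lay above all of them, against 4.27%. Foxc1, a forkhead transcription factor gene, averaged 14.8 ± 1.81 CPM in the mutants and 21.0 ± 2.51 CPM in WT, a log2 difference of −0.50 ± 0.11 (SE; limma adjusted p = 0.0351). It lost the call without mutant replicates 2 or 4 or WT replicates 1, 2 or 3 (adjusted p up to 0.132). Bmp6, Edn1 and Nrg1, which encode signals released by endocardium, stood at 0.35, 0.43 and 0.27. Cdh11, Eng and Ets1 stood at −0.17, −0.18 and −0.12, and none of these genes was called. Of 13 genes of Notch receptors, ligands and targets, 2 fell and 1 rose, with a median of −0.11. Which cells of the ventricle these transcripts came from was not tested. The ligand gene Dll1 fell by 0.96 and the target Hey1 by 0.40, and Hey2 rose by 0.25. Notch1 stood at −0.17 and the ligand gene Jag1 at −0.36, neither of them called. Hey1 lost its call in 6 and Hey2 in 4 of 8 such fits (adjusted p up to 0.116 and 0.102).

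**Figure D4:**
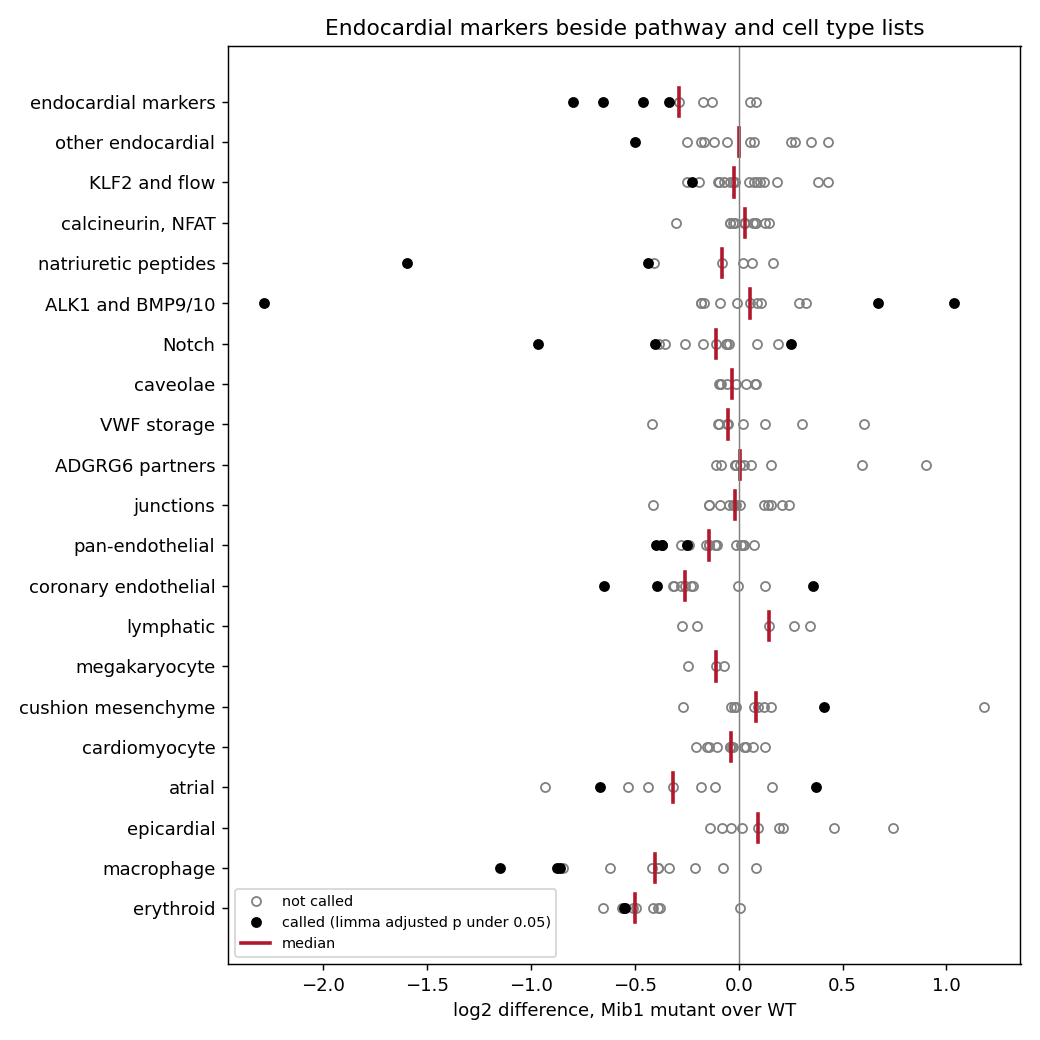
Log2 difference, Mib1 mutant over WT, of every tested gene of each list (points), filled where limma called the gene, with the list median as a red line. The endocardial markers (top row) have a median of −0.29, the other endocardial genes a median of 0 and the pan-endothelial genes a median of −0.14.

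Markers of other cell types that the pools could hold were read in the same libraries, and some lists were lower and others higher in the mutants. With the macrophage level as a covariate Npr3 alone was called, and the log2 differences of Npr3, Plvap, Vwf and Adgrg6 were −0.78, −0.59, −0.56 and −0.42. With the erythroid level Plvap and Vwf were called, and the same differences were −0.41, −0.66, −0.88 and −0.24. With the pan-endothelial level none was called, and they were −0.65, −0.36, −0.67 and −0.57. The SE of Plvap was 0.162, 0.121 and 0.194 under these 3 covariates, against 0.0741 without one. The groups do not overlap in any of the 3 mean log2 levels, so these covariates and the genotype cannot be told apart. With the mean level of 5 Y-linked genes, which overlaps between the groups, Adgrg6 alone lost its call (−0.31; limma adjusted p = 0.102). Of 12 macrophage markers 3 fell (Lyz2, Tyrobp and C1qc), and the summed level was 92 to 113 CPM in the mutants, against 126 to 156 CPM in WT. The macrophage median was −0.41, and C1qc lost its call in 6 of 8 fits (adjusted p up to 0.0964). Of 10 erythroid markers tested 2 fell (Ank1 and Hba-a1), with a median of −0.50 and a sum of 1970 to 3230 CPM in the mutants, against 3010 to 4100 CPM in WT. Hba-a1 lost its call in 6 of 8 fits (adjusted p up to 0.15). Of 9 atrial markers Kcnj3 fell by 0.67 and Myl7 rose by 0.37, and the Myl7 call was lost in 6 of 8 fits (adjusted p up to 0.122), with a median of −0.31. Of 10 cushion mesenchyme markers Tbx20 rose by 0.41, and their median was 0.08. Their sum, 1710 to 1920 CPM in the mutants, against 1650 to 1690 CPM in WT, was higher with no overlap. Tbx20, at 414 CPM in the mutants and 311 CPM in WT on average, made up part of that sum. Postn stood at −0.01, and 4 of the 10 markers lay below 0. The epicardial sum was 218 to 247 CPM in the mutants, against 198 to 218 CPM in WT, also with no overlap before rounding. None of 12 cardiomyocyte, 9 epicardial or 5 lymphatic markers was called, with medians of −0.04, 0.09 and 0.14, and the smallest p in these lists belonged to Tnnt2 (−0.21), Krt8 (0.74) and Flt4 (−0.27). No marker in the table was at 0 in every library.

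The pattern of the set over the 8 libraries was summarised as the mean of the members' standardized log2 CPM. Among 11134 other genes with a mean of at least 5 CPM, the closest by Pearson's r over 8 libraries was Col13a1, a transmembrane collagen gene (r = 0.983, or 0.968 with the group means removed). Nfe2l1, Dock6, Col26a1 and Irx2 followed, with r = 0.962, 0.961, 0.96 and 0.959, or 0.913, 0.879, 0.873 and 0.873 with the group means removed. These are descriptions of 8 shared libraries picked from many genes. Col13a1 averaged 9.37 ± 1.53 CPM in the mutants and 14.7 ± 1.61 CPM in WT, a log2 difference of −0.66 ± 0.13 (SE). The members' mean was itself lower in the mutants, so this difference is not independent of the pick. Nfe2l1, Dock6, Col26a1 and Irx2 stood at −0.07, −0.25, −0.49 and −0.46.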

How the data were processed

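RNA was sequenced from 8 pools of ventricles. Reads were handled with cutadapt 1.2.1, RSEM 1.16, Bowtie2 0.12.7 (version as listed), limma and edgeR on build mm9, per the submitters' processing notes. The deposited table holds a score per gene that the authors scaled so that each column sums to 1000000. Tested on the values, each column was log2 CPM (0.5 added per count) times a constant of 15.9683 to 16.0735. Division by it gave whole counts for 100% of values within 0.001. How the genes were filtered and whether they used read strand are not given in the sources used here. Genes on the opposite strand overlap exons of Npr3, Adgrg6 and Tmem108.

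Groups were compared by limma 3.58.1 in R 4.3.3 (eBayes with trend) on log2 CPM of 13740 genes with a mean of at least 0, two-sided, with Benjamini-Hochberg adjustment over all of them. Symbols and transcript lengths came from GENCODE M21 (GRCm38), matching 13428 genes. The fit was tested on counts simulated with a fixed dispersion common to all genes. That check does not cover the spread of these pools. Same-numbered libraries of the groups correlated at −0.038 to 0.1 after removal of group means, so numbers were not used as pairs. Members, lists and tests were chosen with earlier results of these data known. From each of 10 pathway and 10 cell type lists up to 4 called genes, or the gene of smallest p, were named, and any further gene was named after its values were seen. One gene picked by this rule is not reported here. Alternatives covered pseudocounts, filters, scaling, variance models, covariates, thresholds and each library left out.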

Additional observations from a re-analysis of the deposited data

Results flagged for a closer look

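No member had a library far apart from the other 3 of its group by Dixon's ratio at its 95% critical value, which was computed for 44 named genes in 88 groups. Chance flags about 1 in 20 groups. Dll1 in WT replicate 1 stood at 10 CPM against 11.3 to 11.5 CPM in the other WT libraries, from 69 counts. Unc5b in WT replicate 4 stood at 169 CPM against 192 to 194 CPM in the other WT libraries.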

How the results depend on the processing

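Alternative settings numbered 29 over all results, and not every setting applied to each result. The count of members called lower, 4 in the report, was 2 without a trend and 3 at adjusted p under 0.01. It was 0 with the pan-endothelial, 1 with the macrophage, 2 with the erythroid and 3 with the Y-linked level as covariate. With each library left out it was 3 to 4. The pan-endothelial, macrophage and erythroid levels do not overlap between the groups, so these covariates and the genotype cannot be told apart. No setting gave a member called higher on the deposited scale. With the replicate block 4 members were called lower, and 240 genes in place of 308. Genes called numbered 179 without a trend, 16, 20, 55 and 181 with the pan-endothelial, macrophage, erythroid and Y-linked levels as covariates, 119 and 551 at adjusted p under 0.01 and 0.1, 316 with voom weights, and 146 to 477 with each library left out. Members called higher relative to the pan-endothelial level, 2 in the report, were 1 with Pecam1, Cdh5 and Kdr as the level, 1 with the replicate block and 0 to 2 with each library left out. Members called lower on that scale were 2 with the replicate block and 2 to 3 with each library left out.

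With the pan-endothelial covariate Tmem108, Klf2 and Tmem100 changed sign, to 0.0029, 0.33 and 0.0192 on the log2 scale. On the relative scale Tmem108 changed sign with the median of the list (0.064) and ranged from −0.055 to 0.0199 with each library left out, and Tmem100 stood at −0.0068 with Pecam1, Cdh5 and Kdr and at −0.0509 to 0.105 with each library left out. None of these was called, and the cause was not tested. Depth limits Tmem100 and Klf2 most, at 53 to 136 counts per library.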
